A study of Homo sapiens with 4 samples.

Results

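The genes described here encode the classical guidance ligands and receptors: the ephrins and their Eph receptors, the semaphorins with their plexin and neuropilin receptors, the Slits with their Robo receptors, and the netrins with the UNC5 receptors. Members were matched by gene symbol, under a rule set with earlier results of these data known, and 65 of the 19626 genes in the deposited tables matched. They were measured by RNA-seq in ES-2, a human cell line labelled as ovarian clear cell carcinoma that carries the endogenous YAP1-MAML2 (YM) fusion. One group had been transduced with pLKO.1 lentivirus carrying a non-targeting shRNA (shCtl, n = 2 biological replicates). The other had received the same vector with the MAML2 shRNA called shM2-3 (shMAML2 in the labels, n = 2), which targets a stretch present in both MAML2 and the fusion. Both groups carry the fusion and a lentivirus, and the labels give infections of 8 h on consecutive days and RNA isolation 96 h after the first. The published methods give shorter times for both. A single hairpin in a single cell line was sequenced, so effects of the hairpin other than on MAML2 and the fusion cannot be told apart from those of the knockdown.

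Guidance molecules were named for steering growing axons, but the same families control adhesion, migration and boundary formation in epithelia, vessels and tumors. Ephrins are tethered to the cell surface, A ephrins by a lipid anchor and B ephrins by a transmembrane segment, and signal to Eph receptor tyrosine kinases on the neighboring cell. Class 3 semaphorins are secreted and bind a neuropilin, which has little signaling capacity of its own and relies on a class A plexin. Classes 4 to 6 span the membrane and class 7 is lipid-anchored, and these mostly bind plexins directly. Slits are large secreted proteins that bind Robo receptors, and netrins are laminin-related proteins read by DCC, neogenin and the UNC5 receptors.

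Levels are given as RPKM, in which reads are divided by the transcript's length and the library's mapped reads, which allows levels of different genes to be compared. Changes are log2 fold changes of shM2-3 over shCtl from edgeR on the estimated counts, with their standard error (SE). A gene was called when its Benjamini-Hochberg adjusted p was 0.05 or less and its fold change 2 or more. Adjusted p values are those of edgeR's quasi-likelihood test, taken over the 12157 genes that exceeded an RPKM of 1 in some library. The library totals lay between 20051083 and 23978660 estimated counts. MAML2, the targeted gene, stood at an RPKM of 8.61 and 8.26 in the shCtl libraries and at 3.11 and 2.998 in the shM2-3 libraries, values that include fusion reads on MAML2. Its log2 fold change was -1.40 (SE 0.0688, adjusted p = 5.18e-10). Among markers of ovarian clear cell carcinoma, the keratins KRT7, KRT8 and KRT18 and vimentin were above the level limit and all 4 were lower in shM2-3, with log2 fold changes of -1.25, -1.23, -0.68 and -0.44 (KRT7 and KRT8 called lower). NAPSA, PAX8 and EPCAM were near 0, with group means no higher than 0.300 RPKM. Of 8 fibroblast markers 3 were tested: COL1A1 and PDGFRA rose with log2 fold changes of 1.41 and 1.79 and THY1 was lower. COL1A2 was under the level limit, at 0.363 RPKM in shCtl and 0.290 in shM2-3, and COL3A1, DCN, LUM and POSTN were near 0. The summed RPKM, mostly COL1A1, was 368 to 380 in shCtl and 889 to 890 in shM2-3. Of 6 neuron markers 3 were tested and none was called, RBFOX3, STMN2 and SYP were under the level limit, and the sum, mostly TUBB3, was 57.4 to 59.9 RPKM in shCtl and 94.8 to 95.2 in shM2-3. Of 5 leukocyte markers in the tables, PTPRC and CD3E were at or near 0 in both groups, LYZ was tested and not called, and CD14 had 3 and 4 counts in shCtl libraries and 42 and 37 in those of shM2-3. CD68 was at 57.1 RPKM in shCtl and 38.4 in shM2-3 (log2 fold change -0.51), and the leukocyte sum, mostly CD68, was 57.4 to 58.3 and 40.0 to 41.1 RPKM. The part of other cells in the guidance values was not tested. In bulk RNA, fewer cells of a kind and less RNA per cell cannot be told apart.

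The guidance genes moved mostly upward. Of the 65 members, 45 passed the filter and were tested. In shM2-3 cells 20 of them were called higher, which is 44.4% of those tested against 9.24% of all genes tested, and 4 were called lower, 8.89% against 8.93%. The other 21 were not called, although 13 of these were higher and 6 lower at an adjusted p of 0.05 or less. Without the fold limit, 33 members were higher and 10 lower at that p, against 36.3% and 36.4% of all genes tested, and 72.7% of all genes tested passed in either direction. The median log2 fold change was 0.69 over the tested members and -0.00373 over all genes tested. The filter lets in a gene that is expressed in a single group: 6 members had an RPKM above 1 in shM2-3 libraries only, and 2 in shCtl libraries only. Among the 41 members with a mean RPKM above 1 over the 4 libraries, 18 were called higher (43.9%, against 8.37% of all genes with such a mean) and 3 lower (7.32%, against 8.19%), but such a mean is still raised by the higher group. In 32 tested members both shM2-3 libraries lay above both shCtl libraries (71.1%, against 38.9% of all genes tested), and in 11 they lay below (24.4%, against 47.1%). The groups overlapped in the remaining 2, SEMA4F and PLXNB3.

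**Figure D1:**
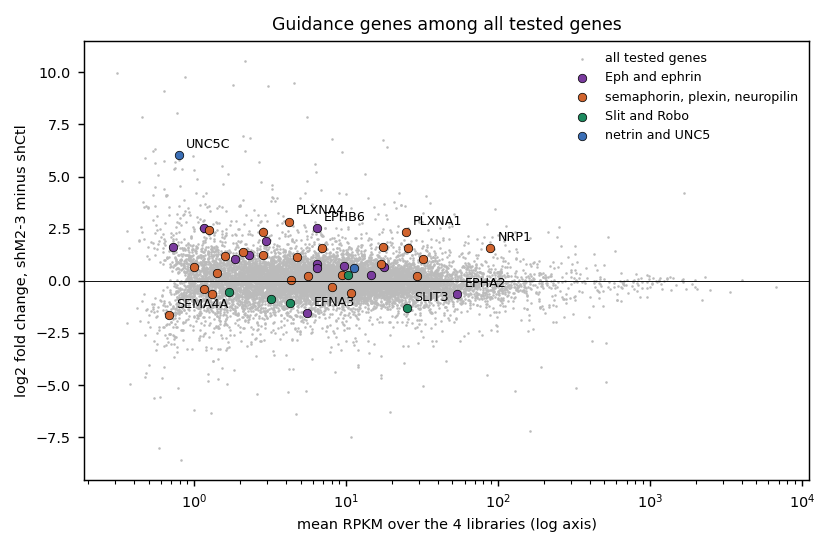
Log2 fold change (shM2-3 minus shCtl) against mean RPKM over the 4 libraries on a log axis, with each tested gene as a grey point and the 45 tested guidance genes colored by family. Most guidance genes lie above 0, with UNC5C highest at 6.05, while SLIT3, EFNA3, SEMA4A and EPHA2 lie below it.

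EPHA2 was the most abundant Eph receptor and the only tested one that fell, while the 4 tested EphB receptors rose. EPHA2, a receptor tyrosine kinase common in carcinoma cells (chromosome 1 of hg38, 16124337 to 16156069), had an RPKM of 64.96 and 67.8 in shCtl and of 41.4 and 41.0 in shM2-3. The groups did not overlap, and the log2 fold change was -0.62 (SE 0.0418, adjusted p = 1.42e-08), short of the fold limit. EPHB6, a receptor whose kinase domain is inactive, went the other way. Its RPKM was 2.09 and 1.85 in shCtl and 10.8 and 10.8 in shM2-3, a 5.73-fold rise (log2 fold change 2.52, SE 0.0924, adjusted p = 2.47e-11). EPHB1 stood at 0.402 and 0.315 RPKM in shCtl and at 1.66 and 2.29 in shM2-3. It rose 5.74-fold (log2 fold change 2.52, SE 0.238, adjusted p = 4.47e-07), and its shM2-3 libraries differed more from each other than those of EPHB6 did. It was above the level limit in shM2-3 alone. EPHA7, at 0.342 and 0.392 RPKM in shCtl and 1.02 and 1.13 in shM2-3, rose 3.06-fold (log2 fold change 1.62, SE 0.194, adjusted p = 4.99e-06) and passed the level limit through its shM2-3 libraries alone.

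Of the 11 Eph receptors, 7 were tested, 3 were called higher and none lower. The shares called among all genes tested were 9.24% higher and 8.93% lower. EPHB4, the partner of ephrin-B2 on venous endothelium, was the most abundant EphB receptor, at 14.2 and 14.2 RPKM in shCtl libraries against 21.2 in each shM2-3 library. EPHA4, which binds ephrins of both classes, EPHB2 and EPHB4 had log2 fold changes between 0.61 and 0.79 with adjusted p of 2.2e-07 or less, all under the fold limit. EPHB3, the EphB receptor under the level limit, had lower values in shM2-3, with 41 and 53 counts after 76 and 57 in shCtl (log2 fold change -0.67 and adjusted p = 0.0579 in edgeR's test with no limit on level). Summed over the class, the EphA receptors went from 71.8 ± 2.03 to 50.6 ± 0.0702 RPKM and the EphB receptors from 22.3 ± 0.506 to 41.9 ± 0.628 (mean ± SD of 2 libraries). EPHA2 made up 69.8% and 71.2% of the summed Eph receptor RPKM in the shCtl libraries and 45.0% and 44.1% in the shM2-3 libraries. EphB receptors took 24.4% and 23.1% in shCtl and 45.0% and 45.6% in shM2-3. These shares compare genes within a library, so they do not depend on how libraries were scaled. With 2 libraries in a group the smallest p of an exact permutation test is 0.333, and none was run on shares or sums.

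Among the ephrins, EFNB2 and EFNA5 rose and EFNA3 fell. Ephrin-B2, a transmembrane ligand of EphB receptors and EPHA4, had an RPKM of 1.23 and 1.35 in shCtl and of 4.91 and 4.39 in shM2-3. The difference was 3.78-fold (log2 fold change 1.92, SE 0.107, adjusted p = 2.05e-09). EFNA5, a lipid-anchored ligand, went from 1.37 and 1.44 to 3.29 and 3.12 RPKM (log2 fold change 1.26, SE 0.117, adjusted p = 4.05e-07). EFNA3 stood at 8.08 and 8.47 RPKM in shCtl and at 2.67 and 2.70 in shM2-3, with no overlap between the groups. It fell 2.95-fold (log2 fold change -1.56, SE 0.136, adjusted p = 2.02e-07) and was the only tested ephrin that fell.

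EFNA3 lies in a cluster of A ephrin genes on chromosome 1, and its neighbors moved the other way. EFNA4 is 9284 bases and EFNA1 40338 bases from it in the GENCODE annotation of hg38. EFNA4 was at 7.08 and 8.08 RPKM in shCtl and at 12.4 and 11.01 in shM2-3 (log2 fold change 0.69, SE 0.124, adjusted p = 0.000208), under the fold limit. EFNA1, a ligand of EPHA2, had 37 and 56 counts in the shCtl libraries and 115 and 94 in those of shM2-3. Its log2 fold change of 1.02 (SE 0.282, adjusted p = 0.00513) was just past the limit and was 0.77 without shCtl replicate 1, 0.95 without shM2-3 replicate 1 and 0.99 when scaled by total counts, each of which ends the call. The annotation holds a read-through gene, EFNA4-EFNA3, that shares exons with EFNA4 and EFNA3, so the split of reads between these genes is uncertain. EFNA3 took 46.0% and 43.4% of the summed A ephrin RPKM in shCtl and 12.7% and 14.1% in shM2-3, while the sum itself overlapped between the groups (17.5 and 19.5 against 21.0 and 19.2). EFNB1 remained the most abundant ephrin, at 13.2 and 13.9 RPKM in shCtl and 15.3 and 16.1 in shM2-3, with a log2 fold change of 0.28.

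**Figure D2:**
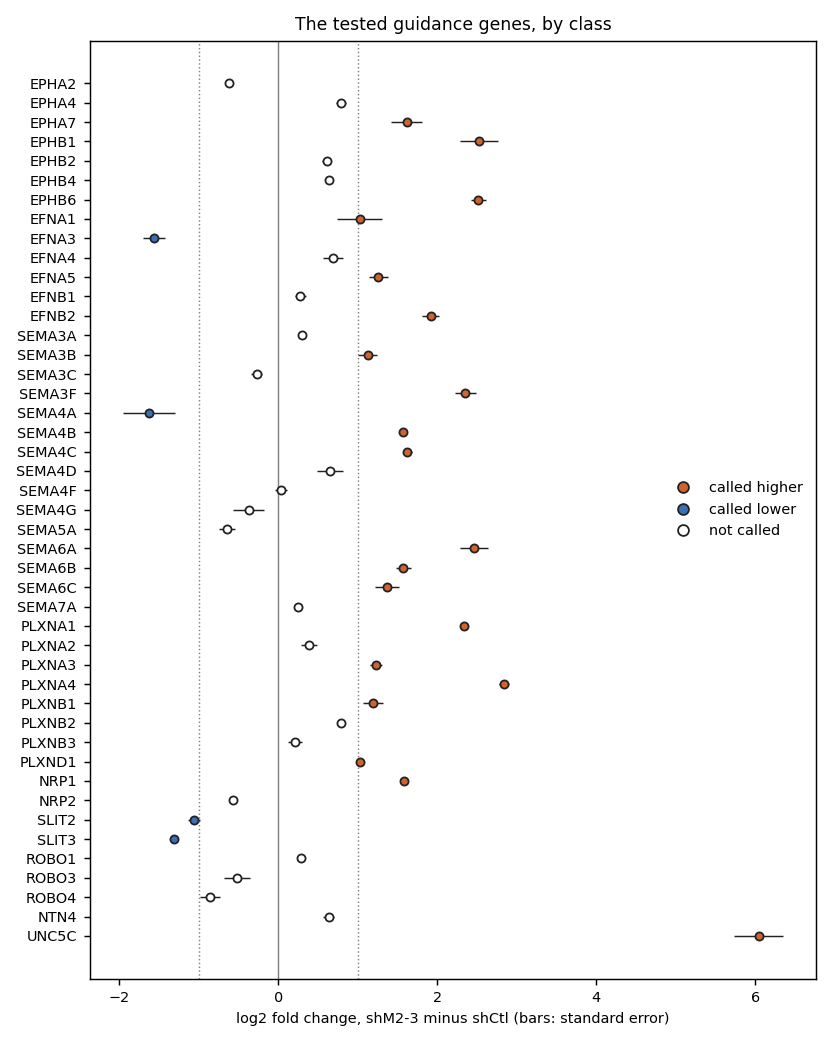
Log2 fold change (shM2-3 minus shCtl) of the 45 tested guidance genes, grouped by class, with bars for the standard error and dotted lines at a fold change of 2. Filled points passed both limits (20 higher, 4 lower), and the plexins with NRP1 lie to the right while both tested Slits lie to the left.

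Nearly all plexins, the signaling receptors of semaphorins, moved upward. Among all genes tested, 38.9% were higher with separate groups, 36.3% were higher at an adjusted p of 0.05 or less, and 9.24% were called higher. Of the 8 plexins tested, 7 were higher with separate groups at an adjusted p of 0.05 or less, and 5 were called higher. The other, PLXNB3, overlapped between the groups, and its adjusted p of 0.0458 in edgeR's test was 0.0995 with DESeq2, 0.105 when scaled by total counts and 0.454 without shCtl replicate 1. PLXNA1, a class A plexin that signals for neuropilins (chromosome 3, 126982693 to 127037389), had an RPKM of 8.28 and 8.59 in shCtl and of 41.0 and 40.7 in shM2-3. The groups were far apart, at 5.07-fold (log2 fold change 2.34, SE 0.0436, adjusted p = 2.7e-14). PLXNA4, another class A plexin, went from 1.03 and 1.11 to 7.41 and 7.20 RPKM, a 7.16-fold rise (log2 fold change 2.84, SE 0.0624, adjusted p = 1.32e-13). PLXNA3 stood at 1.77 and 1.71 against 4.04 and 3.75 RPKM, and PLXNB1, the receptor of SEMA4D, at 1.04 and 0.966 against 2.24 and 2.15, with log2 fold changes of 1.23 (SE 0.0775) and 1.19 (SE 0.121). PLXND1 was the plexin with the highest mean level, at 21.0 and 22.3 RPKM in shCtl and 42.4 and 42.4 in shM2-3. Its log2 fold change of 1.03 (SE 0.0433, adjusted p = 9.62e-11) was just past the fold limit, and it was 0.996 without shCtl replicate 1 and 0.999 when scaled by total counts. PLXNA2, PLXNB2 and PLXNB3 were not called, with log2 fold changes of 0.39, 0.79 and 0.21. The plexins summed to 52.4 and 55.5 RPKM in shCtl and to 127.0 and 125.2 in shM2-3. Class A plexins made up 23.6% and 22.8% of it in shCtl and 42.5% in each shM2-3 library.

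The neuropilins moved apart. NRP1, a co-receptor for class 3 semaphorins and for VEGF, was the most abundant of all guidance genes in shM2-3 cells. Its RPKM was 45.3 and 46.4 in shCtl and 131.5 and 131.2 in shM2-3, 3.001-fold higher (log2 fold change 1.59, SE 0.0378, adjusted p = 2.7e-13). NRP2, which prefers SEMA3F, was at 13.5 and 12.6 RPKM in shCtl and 8.18 and 8.66 in shM2-3, and its log2 fold change was -0.57 (SE 0.0528, adjusted p = 3.84e-07), not called. NRP1 was 77.0% and 78.6% of the neuropilin RPKM in shCtl and 94.1% and 93.8% in shM2-3.

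Among the 20 semaphorins, 15 were tested, 7 were called higher and 1, SEMA4A, lower, against 9.24% and 8.93% of all genes tested. The secreted ligands SEMA3F and SEMA3B, neighbors on chromosome 3 that lie 78483 bases apart and are known as tumor suppressor candidates, both rose. SEMA3F had 0.969 and 0.952 RPKM in shCtl and 4.54 and 4.86 in shM2-3, 5.12-fold more (log2 fold change 2.36, SE 0.134, adjusted p = 2.45e-09), and was above the level limit in shM2-3 alone. SEMA3B had 2.64 and 3.51 RPKM in shCtl and 6.56 and 6.24 in shM2-3, with a log2 fold change of 1.12 (SE 0.122, adjusted p = 1.9e-06) that was 0.94, under the limit, without shCtl replicate 1. SEMA3A and SEMA3C, the most abundant class 3 members in shCtl, moved less: SEMA3A stood at 8.64 ± 0.102 and 10.1 ± 0.518 RPKM and SEMA3C at 9.02 ± 0.0784 and 7.14 ± 0.256 (mean ± SD of 2 libraries). Their log2 fold changes were 0.30 (adjusted p = 0.000186) and -0.27 (adjusted p = 0.00209).

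Among the membrane-bound semaphorins, members of classes 4 and 6 rose. SEMA4B stood at 12.7 and 13.9 RPKM in shCtl and at 38.5 and 37.2 in shM2-3, 2.98-fold higher (log2 fold change 1.58, SE 0.0510, adjusted p = 6.5e-12). SEMA4C, a ligand of PLXNB2, went from 8.73 and 8.98 to 26.6 and 25.6 RPKM (log2 fold change 1.63, SE 0.0565, adjusted p = 1.41e-11). The class 4 sum went with them, from 29.7 ± 1.48 to 70.7 ± 1.46 RPKM (mean ± SD of 2 libraries). SEMA4A, in contrast, had 70 and 102 counts in the shCtl libraries and 30 and 31 in those of shM2-3, and fell by 1.63 on the log2 scale (SE 0.328, adjusted p = 0.000544). Its RPKM was 0.861 and 1.23 in shCtl and 0.302 and 0.344 in shM2-3. It passed the level limit through shCtl replicate 2 alone. All 3 tested class 6 members, which signal through class A plexins, were called higher, against 9.24% of all genes tested. SEMA6A went from 0.329 and 0.464 to 1.97 and 2.20 RPKM (log2 fold change 2.46, SE 0.178), again above the level limit in shM2-3 alone, SEMA6B from 3.25 and 3.98 to 9.97 and 10.6 (1.57, SE 0.0973), and SEMA6C from 1.21 and 1.21 to 2.85 and 3.12 (1.37, SE 0.149). SEMA7A, the most abundant semaphorin in shCtl, stood at 26.2 and 28.2 RPKM in shCtl and at 30.2 and 31.4 in shM2-3 (log2 fold change 0.25), not called. SEMA4D, SEMA4F, SEMA4G and SEMA5A were not called, with log2 fold changes of 0.65, 0.04, -0.37 and -0.65. Only SEMA4F and SEMA4G of the tested guidance genes had an adjusted p above 0.05 (0.698 and 0.106).

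**Figure D3:**
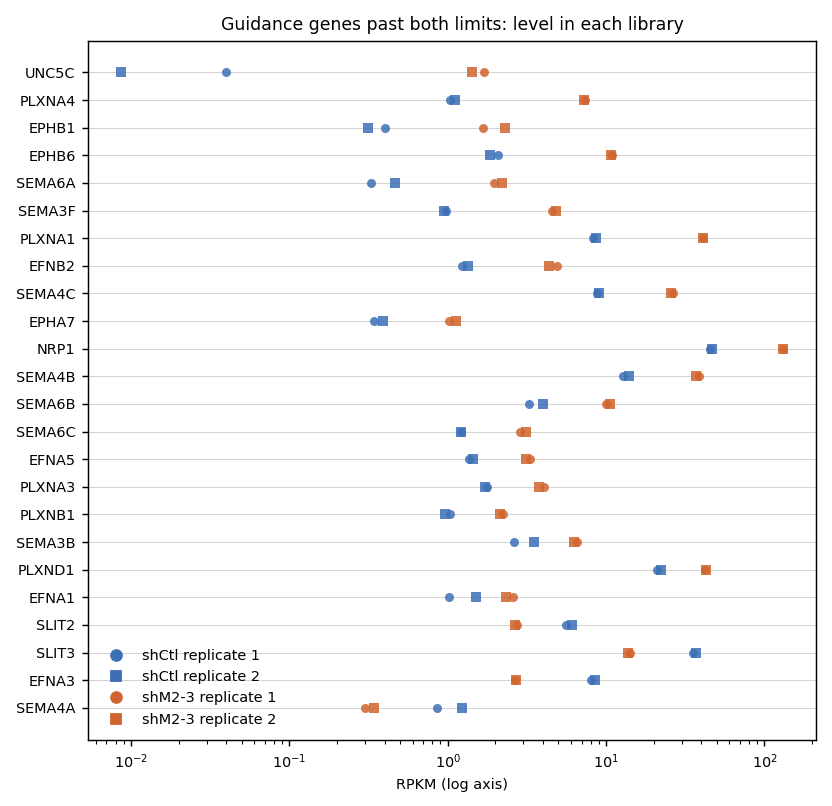
RPKM on a log axis of the 24 called guidance genes in each of the 4 libraries, ordered by log2 fold change. In each of the 24 the shCtl and shM2-3 libraries are separate, which the limits for a call all but require. Of all genes tested, 38.9% were higher and 47.1% lower with separate groups. UNC5C shows the widest gap between shCtl replicates.

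TEAD factors, the DNA-binding partners of YAP1, recognize GGAATG, so the promoters of guidance genes were read for these letters on either strand. RefSeq promoters (GRCh38.p14, 250 bases before to 50 after a start) were found for 56 of the 65 genes, 88 windows in all. The motif stood in 10 of the 88 windows (11.4%), against 11.5% of the windows of tested genes and 14.0% of all windows, so its share was near the background. It was in 4 of 28 windows (14.3%) of genes called higher and in 2 of 7 (28.6%) of genes called lower. Both of the latter are starts of 1 gene, SEMA4A, and 2 of the former are starts of SEMA3B. The genes without a window include NRP1, SEMA6A and SEMA6B, which were called higher. Windows of ROBO3, NTN4 and PLXNB3, which were not called, also held the motif and are not shown. The sites in windows of SEMA3F, SEMA3B and PLXNB1 (called higher), SEMA4A (called lower) and EPHA2 (not called) are shown, 5′ to 3′ on the strand of the gene, with the motif or its reverse complement in capitals.
SEMA3F, chr3:50155251-50155276, plus strand: cccgcgctggGGAATGcgccctcggc
SEMA3B, chr3:50267477-50267502, plus strand: cccttgtgccCATTCCactcccgcct
SEMA3B, chr3:50269046-50269071, plus strand: gttcggaagtGGAATGcgacccccca
PLXNB1, chr3:48429571-48429594, minus strand: gcggggctGGAATGcggggtcccg
SEMA4A, chr1:156149694-156149719, plus strand: gttgtaaagaGGAATGggccccagct
SEMA4A, chr1:156150041-156150066, plus strand: gaaagcctggCATTCCagagggaggg
EPHA2, chr1:16156127-16156152, minus strand: cctttaaagaCATTCCtgagggcggg
The motif lies at base -63 from a RefSeq start of SEMA3F and at -73 from one of EPHA2. SEMA3F was called higher, and EPHA2 was lower but not called. These are letter matches, and binding was not measured here.

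Both tested Slits fell. SLIT3, a secreted ligand of Robo receptors (chromosome 5, 168661740 to 169301139), was at 35.5 and 37.1 RPKM in shCtl and at 14.1 and 13.8 in shM2-3. The groups did not overlap, and it fell by 1.31 on the log2 scale (SE 0.0422, adjusted p = 6.17e-12). SLIT2 stood at 5.58 and 6.12 RPKM in shCtl and at 2.73 and 2.64 in shM2-3 (log2 fold change -1.06, SE 0.0755, adjusted p = 2.72e-08), and its value without shCtl replicate 2 was -0.991, under the limit. SLIT1 had 6 counts or fewer in each library and was not tested. The Slits summed to 41.1 and 43.2 RPKM in shCtl and to 16.9 and 16.4 in shM2-3, and SLIT3 held 86.4%, 85.8%, 83.7% and 83.9% of it in the 4 libraries.

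Of the 4 Robo receptors 3 were tested and none was called, against 18.2% of all genes tested. ROBO2, under the level limit, was called lower in edgeR's test with no limit on level (log2 fold change -1.23, adjusted p = 9.23e-09). In that test 7.76% of the 19626 genes were called lower. ROBO1, the most abundant Robo receptor, was slightly higher in shM2-3, at 9.39 and 9.61 RPKM against 11.4 and 10.8 (log2 fold change 0.29, SE 0.0497, adjusted p = 0.000151). ROBO4, best known from endothelium, had 410 and 443 counts in the shCtl libraries and 246 and 272 in those of shM2-3 (log2 fold change -0.86, SE 0.124, adjusted p = 2.96e-05) and passed the fold limit when shM2-3 replicate 2 was left out (-1.01). Of 6 endothelial markers 2 were tested, and they moved apart: CDH5 fell by 1.17 and PECAM1 rose by 5.07 on the log2 scale. PECAM1 had 6 and 5 counts in the shCtl libraries and passed the level limit through shM2-3 replicate 1 alone. CLDN5, KDR, TEK and VWF were at 0.246 RPKM or less in group means. VWF had 6 and 18 counts in the shCtl libraries and 2 and 0 in those of shM2-3. The endothelial sum, mostly CDH5, was 9.48 to 10.6 RPKM in shCtl and 5.115 to 5.67 in shM2-3. The part of endothelial cells in the ROBO4 value was not tested. ROBO3, 2220 bases from ROBO4, also had lower values in shM2-3 (log2 fold change -0.52, SE 0.160, adjusted p = 0.0103). Relative to the summed Robo RPKM, the Slit sum was 255% and 257% in shCtl and 113% and 109% in shM2-3.

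**Figure D4:**
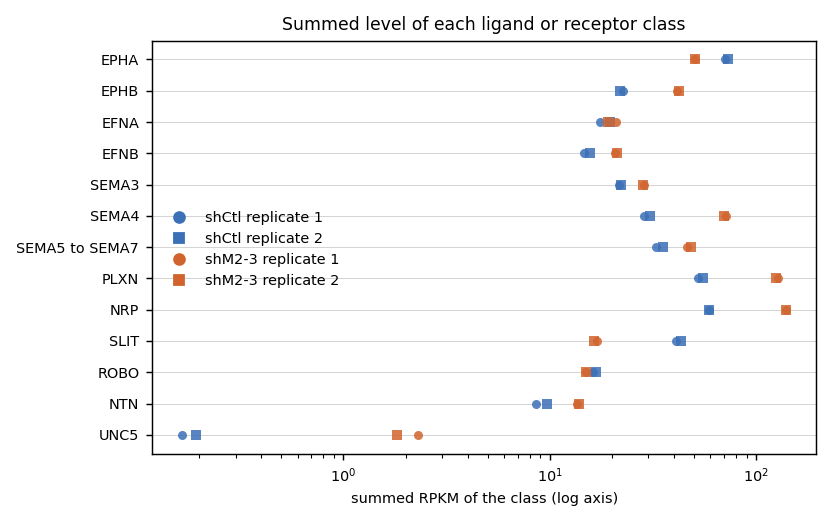
Summed RPKM on a log axis of each ligand or receptor class in the 4 libraries. The SEMA4, PLXN, NRP and EPHB sums are higher in both shM2-3 libraries, the SLIT and EPHA sums are lower, and the EFNA sums overlap.

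The netrin branch was thin on the ligand side. NTN4, a netrin of basement membranes, was the only netrin above the level limit, at 8.51 and 9.61 RPKM in shCtl and 13.2 and 13.7 in shM2-3 (log2 fold change 0.63, SE 0.0711, adjusted p = 2.56e-06), not called. NTN1, NTN3 and NTN5 had 14 counts or fewer in each library. The receptor UNC5C showed the largest change among the guidance genes tested, and held 9 and 2 reads in the control libraries and 467 and 355 in the knockdown libraries. Its RPKM was 0.0399 and 0.00871 in shCtl and 1.69 and 1.42 in shM2-3, and its log2 fold change 6.05 (SE 0.309, adjusted p = 7.99e-10). The ratio of the pooled counts, per effective library size, was 67.7 with an exact 95% interval of 37.6 to 136 that covers counting error only. Because so few control reads carried it, the log2 fold change was 7.47 without shCtl replicate 1 and 5.33 without shCtl replicate 2. UNC5C passed the level limit through its shM2-3 libraries alone and overlaps UNC5C-AS1 in the annotation.

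**Figure D5:**
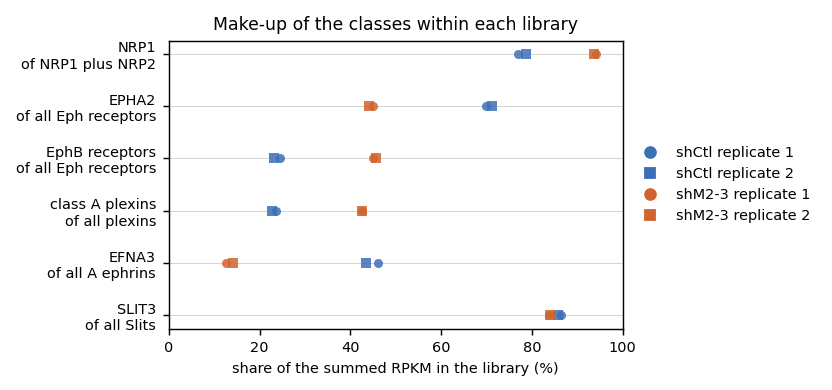
Share (%) that a gene or class holds of the summed RPKM of its family in each of the 4 libraries. NRP1 moves from 77.0% and 78.6% in shCtl to 94.1% and 93.8% in shM2-3, EPHA2 from 69.8% and 71.2% to 45.0% and 44.1%, and SLIT3 stays between 83.7% and 86.4%.

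The 20 members under the level limit had between 0 and 183 counts in a library, and 12 of them had 20 counts or fewer in each library. They were EFNA2, EFNB3, EPHA1, EPHA5, EPHA6, EPHB3, NTN1, NTN3, NTN5, PLXNC1, ROBO2, SEMA3D, SEMA3E, SEMA3G, SEMA5B, SEMA6D, SLIT1, UNC5A, UNC5B and UNC5D. When genes were tested with no limit on level, 4 of these were called higher and 1 lower, against 8.45% and 7.76% of the 19626 genes. SEMA6D, of class 6, had 8 counts in each shCtl library and 50 and 48 in the shM2-3 libraries. UNC5B had 12 and 19 in shCtl and 95 and 44 in shM2-3, and the others called higher were EFNB3 and EPHA5. ROBO2 was lower, with 183 and 132 in shCtl and 72 and 79 in shM2-3.

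Genes that act beside these ligands and receptors were read from a list of 102 other guidance genes, of which 100 were in the tables and 72 were tested. In shM2-3 cells 15 were called higher (20.8%, against 9.24% of all genes tested) and 3 lower (4.17%, against 8.93%), with a median log2 fold change of 0.34. Among the proteases that shed or process guidance proteins, all 6 were higher at an adjusted p of 0.05 or less, against 36.3% of all genes tested, and 3 were called higher. PSEN2, a presenilin, is the least certain of them, with an adjusted p of 0.0458 in edgeR's test and 0.13 with DESeq2. MMP14, a membrane-bound matrix protease, was at 45.6 and 46.8 RPKM in shCtl and at 197.5 and 201.8 in shM2-3 (log2 fold change 2.18, SE 0.0406). FURIN, a convertase that cleaves class 3 semaphorins, rose with a log2 fold change of 1.42 (SE 0.0451). DCC, the netrin receptor that pairs with UNC5 proteins, was at 0.751 and 0.759 RPKM in shCtl and at 3.96 and 3.69 in shM2-3 (log2 fold change 2.41, SE 0.0936, adjusted p = 4.47e-11). NEO1, neogenin, was also called higher (log2 fold change 1.07, SE 0.0687).

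The intracellular arm of the list moved in both directions. LIMK1, a kinase that inactivates cofilin, went from 17.8 and 19.1 to 67.3 and 68.4 RPKM (log2 fold change 1.94, SE 0.0482), and TIAM1, a Rac exchange factor, rose 3.11-fold. PTPN13, a phosphatase that binds B ephrins, rose by 1.42 and SRGAP2, of the Slit-Robo GTPase-activating proteins, by 1.28 on the log2 scale. RND1, a GTPase that binds plexins, had 13 and 12 counts in the shCtl libraries and 38 and 45 in those of shM2-3, and its adjusted p was 0.0628 without shM2-3 replicate 2 in edgeR's test. ABL2, a kinase of the cytoskeleton, fell by 1.94 on the log2 scale, from 15.8 and 15.9 to 3.85 and 4.03 RPKM, and CHN1, a Rac GTPase-activating protein, fell by 1.52. None of the 12 tested collapsin response and cytoskeletal effectors was called, against 18.2% of all genes tested. Without the fold limit, 6 of them were higher and 4 lower at an adjusted p of 0.05 or less. Of all genes tested, 36.3% were higher and 36.4% lower at that p.

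Libraries were not stranded, and members whose exons overlap other annotated genes can hold reads of those genes. Besides EFNA3 and UNC5C, this holds among called members for EFNB2, EPHA7, EPHB1, NRP1, PLXNA3, SEMA3B, SEMA3F, SEMA6A and SLIT3.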

How the data were processed

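RNA of 4 ES-2 libraries (2 shCtl, 2 shM2-3) was sequenced without strand information, from both ends over 150 bases. Per the submitters' processing notes and the methods, the authors aligned to hg38 by HISAT2 2.0.4, removed ambiguous and low-quality alignments, and quantified RefSeq genes in Partek 7.18. They deposited estimated counts, of which 42.4% to 48.6% in a library were whole numbers, and RPKM values, which divide these counts by transcript length and mapped reads.

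Estimated counts were rounded and tested with edgeR 4.0.16 in R 4.3.3 (TMM factors, glmQLFit, glmQLFTest, no block), with the study's filter and limits. SE is the log2 fold change divided by the square root of F. Samples were grouped by title. The replicates were distinct libraries, differing 3.46 (shCtl) and 3.98 (shM2-3) times more than sampling gives (chi-square over degrees of freedom). The p-values measure the spread between 2 biological replicates per group. For each gene that spread is drawn toward values shared over the genes tested. SD values rest on pairs. The fits were tested on simulated counts. Alternatives were DESeq2 1.42.0, limma 3.58.1 on log2(RPKM + 0.1) and log2(RPKM + 1), other scalings, filters and limits, a block for the replicate number, and leaving out each library. The count of members by mean RPKM was added after the data were seen.

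Members and lists were chosen with earlier results of these data known. All members were accounted for: called ones with all library values, the most abundant member of each class, and the 10 called genes of the wider list with the largest change. NEO1, SEMA6D, UNC5B, ROBO2 and the marker genes were named beside them, and 1 marker is not reported here. Gene positions come from GENCODE release 44 on hg38 and promoters from RefSeq.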

Additional observations from a re-analysis of the deposited data

How the results depend on the processing

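Each of the 45 tested guidance genes was refitted under 12 alternatives. Direction was kept in all of them for 44 genes, and 516 of 540 refits kept the direction and the call. The exception in direction was SEMA4F, which was not called: its log2 fold change of 0.04 became -0.0276 with limma on log2(RPKM + 0.1), -0.0229 with limma on log2(RPKM + 1), and ranged from -0.00337 to 0.0789 with a library left out. A pseudocount of 1 lowers the fold of genes with low RPKM by construction: with limma on log2(RPKM + 1), 12 guidance genes were called higher and 2 lower, and in the wider list 7 higher and 1 lower. Over all 12157 genes tested, 1320 were called in that fit in either direction. With limma on log2(RPKM + 0.1), 9 genes of the wider list were called higher, and 2128 of all genes tested were called in either direction. At a fold limit of 1.5, 27 guidance genes were called higher and 7 lower, and 27 higher and 8 lower in the wider list. No share over all genes was taken at that limit. With no fold limit, 33 guidance genes were higher and 10 lower, and 43 and 14 in the wider list. Scaling the summed levels by TMM in place of RPKM moved the log2 ratio of shM2-3 over shCtl by more than the replicate spread for EphA (-0.51 to -0.44), EphB (0.91 to 0.97), class 3 semaphorins (0.38 to 0.45), plexins (1.22 to 1.29), neuropilins (1.25 to 1.31), Slits (-1.34 to -1.28) and Robos (-0.14 to -0.0733). Such scaling multiplies each library by 1 factor shared by all classes, so every class ratio shifted upward by nearly the same amount. The classes listed are those whose replicate spread was smaller than that shift. With the replicate number as a block, 20 guidance genes were called higher and 4 lower, the same 24 genes. Over all 12157 genes tested, 2202 were called in either direction with the block and 2209 without it. The replicate numbers are not stated to pair cultures, and the correlation of replicate deviations between the groups was -0.0287. With a library left out, the median log2 fold change was 0.667 to 0.785 over the tested members. It was -0.00484 to 0.0025 over all genes tested. In these refits the lone library was assumed to vary like the other group. Few reads limit UNC5C in shCtl and the 12 untested members with 20 counts or fewer in each library.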
